A study of Mus musculus with 502 samples.

Results

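The T cells described here were single immune cells sorted from mouse kidney that were chosen by their own reads: a cell was taken when it held at least 5 counts of Cd3e and fewer than 5 counts each of Cd79a, a chain of the B cell receptor, and of C1qb, a complement chain of resident macrophages. The rule took 106 of 502 cells, or 21.1% (exact 95% interval 17.6 to 25.0). Cd3e counts in the chosen cells ran from 18 to 2270 with a median of 543.5. The cells just inside the rule held 18, 21, 25, 32 and 34 Cd3e counts, and those just outside held 4, 2, 1, 1 and 1, so few cells lay near the limit. In the 106 cells Cd79a reached at most 4 counts and C1qb at most 1.

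The mice were wild type, of the outbred CD1 strain and about 3 weeks old, and no drug treatment was named. Fresh cells (156) came from kidneys digested without storage. The stored groups came from uncut organs that stood at 4 °C in HypoThermosol-FRS, a cold storage solution, for 6 hours (76 cells) or for 1 (75), 2 (78), 3 (82) or 4 (35) days. No kidney was perfused. Every group went through the same warm Liberase digestion and a sort of propidium iodide negative, Cd45+ cells, so the fresh cells carried the digestion too, and blood cells left in the organ could be among them. The study's methods pool kidneys of the same mouse for a sort, but the fresh and the day 4 cells each held Xist in some cells and Y-linked transcripts in others, so each of these timepoints held cells of more than 1 animal. The titles held a code such as IM793 before the index numbers, which is called a pool here although the titles do not say what it marks. Fresh cells came from pool IM793 (75) and pool IM834 (81), all 6 hour and day 2 cells from IM793, all day 1 and day 3 cells from IM834, and day 4 cells from IM790 (14), IM793 (2) and IM834 (19). No label named an animal, so each timepoint was treated as 1 sample. Differences below are descriptions of these cells with no test, and time, animal and pool cannot be told apart.

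T cells recognise fragments of protein through a receptor made of a variable pair of chains, alpha and beta or gamma and delta, held in a complex with the invariant CD3 gamma, delta and epsilon chains and the zeta chain Cd247. The coreceptor CD4 marks helper and regulatory T cells, which read peptides on class II molecules, and CD8 marks cytotoxic T cells, which read class I. Naive T cells circulate through blood and lymph nodes using Ccr7 and S1pr1 under the transcription factors Klf2, Tcf7 and Lef1. Effector and memory T cells lower these genes, turn on chemokine receptors, cytokines and granule proteins, and can remain in organs such as the kidney.

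The genes of the rule and its closest partners lie together on chromosome 9 in mouse build GRCm38: Cd3g at chr9:44969572-44980431 on the minus strand, Cd3d at chr9:44981786-44987339 on the plus strand and Cd3e at chr9:44998740-45009627 on the minus strand. Their upstream sequences are shown because the 3 genes were read together in most of the chosen cells. Each line holds the 250 bases before the RefSeq start (GRCm38.p6), 5′ to 3′ on the gene's own strand. Capitals mark the letters AGGAAG, bound by ETS factors, and CTTTGA, bound by TCF and LEF factors, or the reverse complement of either.
Cd3e, chr9:45009612-45009861, minus strand: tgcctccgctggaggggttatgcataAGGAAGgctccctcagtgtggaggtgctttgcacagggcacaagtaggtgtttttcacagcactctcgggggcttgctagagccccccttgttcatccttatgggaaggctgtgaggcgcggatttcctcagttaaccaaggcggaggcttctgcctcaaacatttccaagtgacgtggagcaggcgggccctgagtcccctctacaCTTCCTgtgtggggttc
Cd3d, chr9:44981536-44981785, plus strand: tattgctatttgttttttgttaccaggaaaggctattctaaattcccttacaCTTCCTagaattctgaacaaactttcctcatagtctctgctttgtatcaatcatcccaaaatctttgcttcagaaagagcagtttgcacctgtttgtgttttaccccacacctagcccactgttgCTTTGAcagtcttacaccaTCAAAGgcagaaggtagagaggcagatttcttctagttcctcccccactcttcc
Cd3g, chr9:44980432-44980681, minus strand: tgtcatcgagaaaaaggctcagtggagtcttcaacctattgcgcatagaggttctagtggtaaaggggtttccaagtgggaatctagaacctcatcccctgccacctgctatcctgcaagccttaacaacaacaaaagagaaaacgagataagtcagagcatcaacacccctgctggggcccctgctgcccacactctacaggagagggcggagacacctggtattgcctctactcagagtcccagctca
AGGAAG stood in the Cd3e window 2 times and in the Cd3d window 1 time, CTTTGA stood in the Cd3d window 2 times, and neither was found in the Cd3g window. The RUNX letters TGTGGT were found in none of the 3. Over 32851 RefSeq promoter windows of mouse, both strands searched, 29.5% held AGGAAG, 13.8% held CTTTGA and 14.0% held TGTGGT, so matches of this kind were common.

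The beta chain of the receptor has 2 constant genes that are nearly the same, and this sets how far their counts can be separated. The first coding exons of Trbc1 and Trbc2 (375 bases each, chromosome 6) differed at 1 base, C260A, given as the Trbc1 base, the position from 1 at the exon's 5′ end, and the Trbc2 base, for an identity of 99.7%. Bases 231 to 290 of each exon are shown with that base in capitals, from GRCm38 on the plus strand.
Trbc1, chr6:41538448-41538507: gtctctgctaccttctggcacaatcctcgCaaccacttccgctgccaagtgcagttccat
Trbc2, chr6:41546960-41547019: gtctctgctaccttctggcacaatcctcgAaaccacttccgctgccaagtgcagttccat
Of all 75-base windows of the Trbc1 transcript 35.1% also occurred in Trbc2, and of the Trbc2 windows 37.7% occurred in Trbc1. A read from a shared window cannot be given to either gene, and the 2 genes are given below with that limit.

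The label of T cell held up against markers the rule did not use. Of Cd3d, Cd3g, Trac and Trbc2, the CD3 delta and gamma chains and the alpha and beta constant regions, 67 of the 106 cells held at least 5 counts of all 4, 30 held 3, 8 held 2 and 1 held 1. Among the 396 other cells 346 held none of the 4. In reads scaled to the cell's total (rpm, counts in 1e6 counts of the cell), Cd3e ran from 23.6 to 3212 with a median of 850, and Cd3d, read in 90 cells, ran from 0 to 2843 with a median of 617. Cd3g, read in 89 cells, had a median of 882 and a maximum of 5216. Trac, read in 92 cells, had a median of 473 and a maximum of 2541. Lef1, read in 76 cells, had a median of 552 and a maximum of 3977. Throughout, a gene is said to be read in a cell when the cell held at least 5 counts of it, and a count of 0 in these single cells can be a transcript that was present and not captured.

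Markers of early T cells and of other lineages were counted in the chosen cells. Rag1, Rag2, Dntt and Ptcra, which act in receptor rearrangement in the thymus, were read in 0 of 106 cells. The rule itself kept Cd79a and C1qb under the limit. Of the other 4 B cell markers 3 were read in no cell, and Cd79b was read in 1. Of the other 6 macrophage markers 3 were read in no cell, and Cd68 was read in 4, with a summed macrophage level of up to 2679 rpm in 1 T cell against a median of 1491 rpm in the other cells. Neutrophil markers were read in 1 cell, erythroid markers in 2, dendritic markers in 4 and kidney epithelial markers in 12, led by Epcam (6 cells) and Gpx3 (6 cells), with a summed epithelial level of up to 3515 rpm in 1 T cell against at most 3066 rpm in the other cells. Markers shared with NK cells were read in 21 cells, through Tbx21 (15), Klrd1 (14), Klrb1c (4) and Ncr1 (3), and their sum reached 10691 rpm. Markers of group 2 innate lymphoid cells were read in 50 of 106 cells, in 42 through Gata3, which T cells also express, with at least 2 such genes in 9 cells and a sum of up to 4486 rpm. The part of other cell types in the T cell values was not tested.

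The rule and the CD3 genes did not name exactly the same cells. Of the 395 cells with fewer than 5 Cd3e counts, 29 held at least 5 counts of Cd3d or Cd3g, 5 held both and 3 held Trac. Of those 29, 11 fell among the 47 CD3-negative lymphoid cells used below. Of 107 cells with at least 5 Cd3e counts, 1 was left out by the rule, a day 2 cell with 83 counts of Cd3e, 161 of Trac, 2339 of Cd79a and 733 of C1qb over 6305 genes. That cell held T, B and macrophage transcripts at once. No doublet caller was run on these sorted single cells.

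Median depth differed little between T cells and all 502 cells, T cells included. Counts per T cell ran from 22125 to 1400215 with a median of 708410, against 1759 to 1895431 with a median of 695188 over all 502 cells. A T cell held a median of 1843 genes with a count (602 to 5844), and a median of 3.75% of its counts were mitochondrial (1.44 to 13.8). The group medians of genes per T cell lay between 1693 and 2198 apart from the 3 day 4 cells, at 4531.

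**Figure D1:**
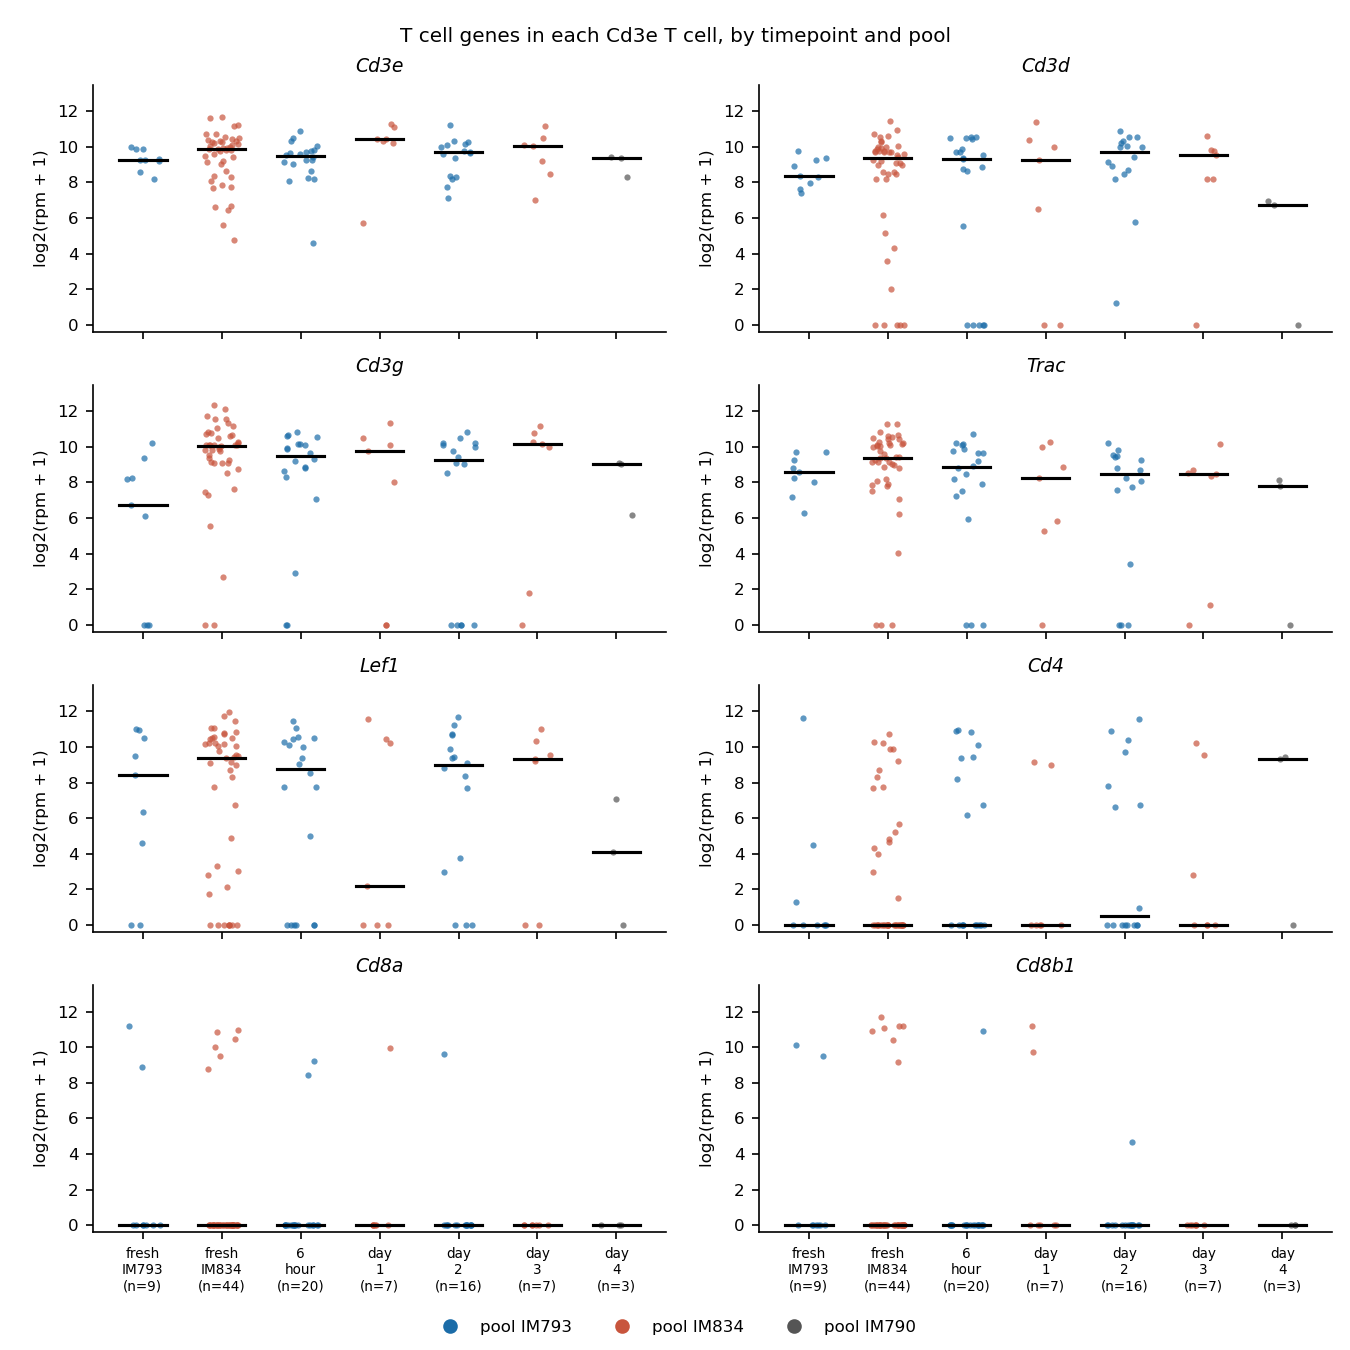
Level of 8 marker genes in each T cell, as log2(rpm + 1) on the vertical axis, by timepoint and pool on the horizontal axis; each point is 1 cell and each bar the group median. Cd3e is above 0 in all 106 cells by the rule, Cd3d, Cd3g and Trac are read in most cells of each group, and Cd4 (40 cells), Cd8a (12) and Cd8b1 are at 0 in most of the 106 cells.

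T cells made up very different shares of the 2 fresh pools. They were 9 of 75 fresh cells of pool IM793, or 12% (exact 95% interval 5.64 to 21.6), and 44 of 81 fresh cells of pool IM834, or 54.3% (42.9 to 65.4). These intervals, like all others here, cover counting error only. At 6 hours 20 of 76 cells were T cells (26.3%, 16.9 to 37.7) and on day 2, in the same pool, 16 of 78 (20.5%, 12.2 to 31.2). The shares at day 1, 7 of 75 (9.33%, 3.84 to 18.3), and at day 3, 7 of 82 (8.54%, 3.50 to 16.8), were below the fresh share of their pool, IM834. At day 4 T cells were 3 of 35 (8.57%, 1.80 to 23.1), all 3 from pool IM790, with 0 of 19 in pool IM834. The fresh pools lay further apart than the stored groups did among themselves, and the number of T cells sorted and their share of the tissue cannot be told apart in these files.

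**Figure D2:**
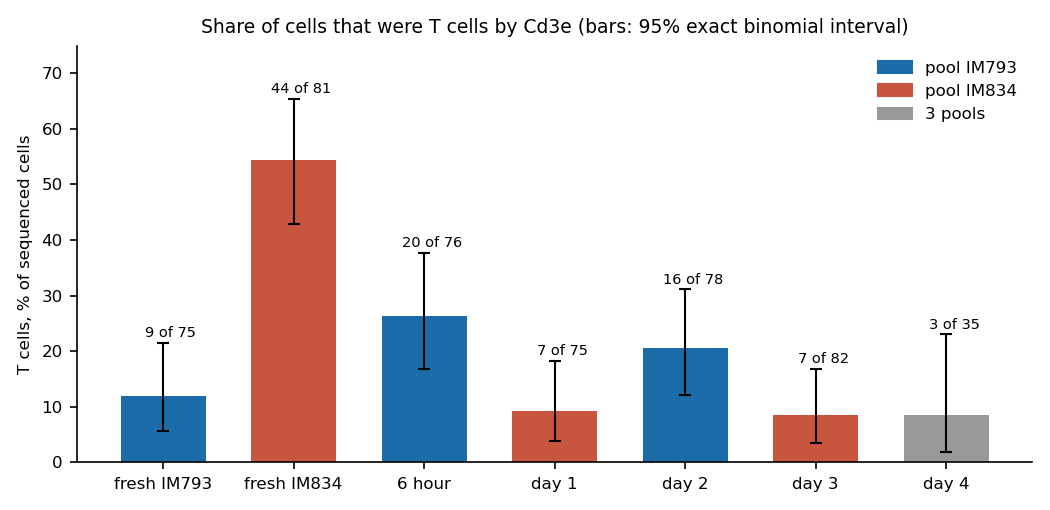
T cells as a percent of all sorted cells, on the vertical axis, for each timepoint and pool on the horizontal axis; bars are shares, coloured by pool, and lines exact 95% binomial intervals for counting error. Fresh cells of pool IM834 (54.3%) stand above all other groups, which lie between 8.54 and 26.3%.

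Transcripts linked to sex were not spread evenly over the pools. Xist, transcribed from the inactive X chromosome, was read in 60.0% of all fresh cells of pool IM793, 47.4% at 6 hours, 76.0% at day 1 and 35.9% at day 2, and any of 4 Y-linked genes in 0% of each of these groups. In fresh cells of pool IM834 the shares were 1.23 and 40.7%, and at day 3 they were 0 and 32.9%. At day 4 Xist was read in 10 of 35 cells (28.6%) and a Y-linked gene in 4 (11.4%), with 0 cells holding both. Day 1 and fresh IM834 cells, which share a pool label, therefore differed in these genes, while day 3 and fresh IM834 cells did not differ in this way. Among T cells Xist was read in 5 of 7 at day 1, 1 of 44 in fresh IM834 and 0 of 7 at day 3. The part of sex or animal in the day 1 differences was not tested.

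Against all other sorted cells, the T cells were set apart by the receptor complex, its signalling chain and naive transcription factors. Trac was read in 92 of 106 T cells and 4 of 396 others, and its summed level in the same scale over a group's summed counts (CPM) was 598 against 12.4, 48.4-fold higher. Tcf7 (72 against 11 cells, 62.4-fold higher), Cd28 (62 against 6, 56.1-fold) and Lef1 (76 against 13, 55.4-fold) were higher still. These genes encode a transcription factor of the T lineage, the main costimulatory receptor of naive T cells and a partner of Tcf7. A gene entered a comparison when at least 10% of the cells of both groups together held 5 counts of it, and it was counted as higher or lower when the summed CPM differed at least 2-fold. Of 5276 genes, 10.5% were higher and 18.2% lower in T cells by that limit, with no measure of replicate error. Within the fresh cells of pool IM834 alone 20.6% of 4527 genes were higher and 19.5% lower, so the excess of lower genes did not hold there. A gene read mainly in one group passed that filter through the group where it was high, so counts of list genes on one side are a description of the list.

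Of the receptor complex list, which includes Cd3e itself, 7 of 7 genes were higher in T cells, with a median log2 ratio of 5.24 beside 0.12 over all genes. Cd3d was read in 90 T cells and 22 others (log2 ratio 4.51), Cd3g in 89 and 14 (5.27), Trbc2 in 104 and 27 (5.24) and Cd247 in 59 and 12 (4.72). Of 20 signalling and coreceptor genes 18 were higher and 0 lower (median 3.65). Among them were Lck, the kinase that starts receptor signalling (90 T cells against 21, log2 ratio 4.49), Lat, the adaptor it leads to (92 against 30, 4.33), and Skap1 (81 against 41, 2.71). The homing receptor genes were less confined to T cells, since S1pr1 was read in 85 T cells and 68 others (3.49) and Ccr7 in 71 and 57 (2.21).

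Genes of antigen presentation and of myeloid and B cells were among the 962 lower in T cells. H2.Aa, a class II chain, was read in 1 of 106 T cells and 236 of 396 others (log2 ratio -13.60), and Cd74, the class II chaperone, in 4 and 280 (-12.03). Spi1, the myeloid and B cell factor PU.1, was read in 1 T cell and 249 others (-7.66), and the kinase gene Lyn in 1 and 230 (-8.83). Of 11 interferon response genes 0 were higher and 6 lower (median -1.31), and of 25 immediate early and feedback genes 1 was higher and 9 lower (median -0.75). Fresh cells of pool IM834 made up 44 of the 106 T cells but 37 of the 396 others. The part of pool and time in these list counts was not tested. In the fresh cells of pool IM834 alone, where both groups came from the same pool and time, Trac (log2 ratio 3.13), Tcf7 (4.40), Lef1 (4.30) and Cd74 (-14.58) lay on the same sides. Klf2 lay on the other side there, at 1.72 against -0.26 over all cells.

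Scaling by TMM in place of the total moved the ratio of T cells to other cells by 0.13 on the log2 scale and that to C1qb cells by 0.28, and in no other comparison by more than 0.13. The list medians printed for these comparisons lie further from 0 than that shift.

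Set against the 3 classes most easily compared, T cells shared different genes with each. Against 74 B cells, 18.5% of 4853 genes were higher in T cells and 13.3% lower. Tcf7 was read in 72 T cells and 1 B cell and Il7r in 53 and 4, while Ccr7 (71 and 50 cells, log2 ratio 0.06) was at nearly the same summed level, and Klf2 (76 and 58, -0.97) and Foxp1 (66 and 59, -1.14) were not higher in T cells. Against 127 C1qb cells, 25.8% of 5116 genes were higher and 18.2% lower. Cd4 transcripts were not restricted to T cells, since 21 of the 127 C1qb cells held at least 5 counts of Cd4.

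The closest class was the 47 CD3-negative lymphoid cells, cells with fewer than 5 counts of Cd3e, Cd79a and C1qb and at least 5 of Il7r, Gata3, Ncr1 or Klrb1c, genes of innate lymphoid and NK cells. Against them 14.0% of 5394 genes were higher in T cells and 11.7% lower. Tcf7 (72 of 106 against 6 of 47 cells, log2 ratio 4.30), S1pr1 (85 against 6, 4.08), Lef1 (76 against 7, 3.95) and Ccr7 (71 against 2, 2.72) were higher in T cells, and 9 of 12 naive and homing genes were higher with 0 lower (median 2.54). Of 24 signalling genes 14 were higher and 0 lower, but Skap1 was read in 81 T cells and 37 lymphoid cells at nearly equal sums (-0.17). Gata3, a factor of type 2 helper cells and innate lymphoid cells, was read in 42 and 36 cells (-2.49) but helped to choose the lymphoid cells, so its gap is a description of that choice. Rora, another factor of innate lymphoid cells, was read in 15 and 25 (-2.21) and Id2, an inhibitor of E proteins, in 44 and 43 (-1.49).

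**Figure D3:**
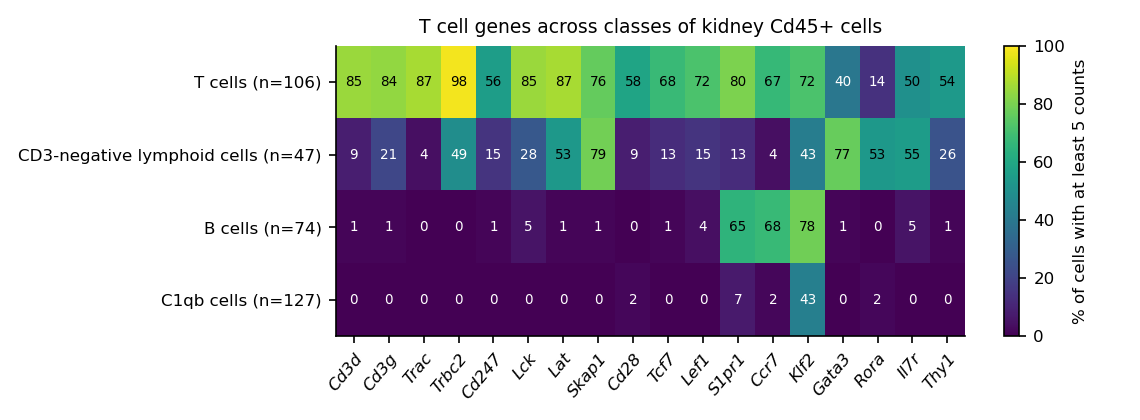
Percent of cells with at least 5 counts of 18 genes, as a colour scale, in T cells (106), CD3-negative lymphoid cells (47), B cells (74) and C1qb cells (127). Cd3d, Trac and Tcf7 are read in most T cells and few of the others, S1pr1, Ccr7 and Klf2 are shared with B cells, and Skap1 and Trbc2 with CD3-negative lymphoid cells, which Il7r and Gata3 helped to choose.

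Receptor variable segments were read in nearly all T cells. At least 1 Trbv segment was read in 100 of 106 cells (94.3%, exact 95% interval 88.1 to 97.9), with 1 segment in 68 cells, 2 in 28, 3 or more in 4 and none in 6. Reads fell on 20 of 35 Trbv genes, led by Trbv13.2 in 27 cells, Trbv12.2 in 15, Trbv16 in 11 and Trbv13.1 and Trbv5 in 9 each. In the 32 cells with more than 1 segment the leading segment held a median of 82.7% of the Trbv counts (50.7 to 99.5). Near-identical Trbv genes can split reads, so a second segment with few counts does not by itself mark a second chain.

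Alpha chain segments were read less often than beta chain segments. A Trav segment was read in 69 cells (65.1%, 55.2 to 74.1), all of which also held a Trbv segment, and reads fell on 52 of 129 Trav genes. By coreceptor, a Trav segment was read in 33 of 40 Cd4 cells, 6 of 12 Cd8a cells and 30 of 54 cells with neither. Trac and a beta constant gene were read together in 92 cells, a beta constant gene without Trac in 13, and neither in 1. Trbc2 was read with Trbc1 in 46 cells, alone in 58, and Trbc1 alone in 1.

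A small number of cells held gamma and delta receptor transcripts. Trdc, the delta constant gene, was read in 5 cells at 19 to 2577 counts, and a gamma constant gene in 12. Of the 15 cells with either, 12 also held Trac, 12 held neither Cd4 nor Cd8a, 3 held Cd8a and 0 held Cd4. Both were read in 2 cells, and neither of those cells held Trac. Gamma variable segments were read in 11 cells, of which 10 held neither coreceptor. A delta variable segment was read in 6 cells, 3 with Cd4 and 3 with neither. Trdc lies within the alpha locus on chromosome 14 and the reads were counted without strand, so a read count here does not by itself show a gamma delta receptor.

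Cd4 and Cd8a divided the cells without overlap. With at least 5 counts as the limit, 40 cells held Cd4 only (37.7%, exact 95% interval 28.5 to 47.7), 12 held Cd8a only (11.3%, 5.99 to 18.9), 0 held both and 54 held neither (50.9%, 41.0 to 60.8). In the 40 Cd4 cells Cd4 ran from 14.6 to 3144 rpm with a median of 623, and in the 12 Cd8a cells Cd8a ran from 340 to 2360 rpm with a median of 887. Cd4 and Cd8a set these groups, so their own levels are a description. When each cell was thinned to 100000 counts, 3 of 53 cells with neither held at least 1 count of Cd4 and 0 of 53 a count of Cd8a. The cells with neither held a median Cd3e level of 813 rpm, against 808 rpm in Cd4 cells and 979 rpm in Cd8a cells, and 42 of the 54 held Trac.

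The division held in the timepoints with enough cells to show it. Cd4, Cd8a and neither were counted in 2, 2 and 5 fresh IM793 cells, 16, 6 and 22 fresh IM834 cells, and 9, 2 and 9 cells at 6 hours. They were 2, 1 and 4 at day 1, 7, 1 and 8 at day 2, 2, 0 and 5 at day 3 and 2, 0 and 1 at day 4. Cd4 cells outnumbered Cd8a cells wherever more than 10 T cells were sorted, and cells with neither made up at least 9 of 20 cells in every group but day 4.

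Cd8a cells were marked by the second CD8 chain and by genes of cytotoxic cells. Cd8b1 was read in 11 of 12 Cd8a cells and 1 of 40 Cd4 cells, at summed levels of 1360 and 20.3 CPM (log2 ratio of Cd4 to Cd8a cells -6.07). Nkg7, a granule membrane protein, was read in 9 of 12 and 3 of 40 (888 and 76.6 CPM, -3.53) and Ctsw, a protease of cytotoxic cells, in 8 and 6 (-2.70). Nkg7 in the Cd8a cells ran from 0 to 2093 rpm with a median of 601, while its median in Cd4 cells was 0 with a maximum of 4564, so the groups overlapped. Ccr9, a gut and thymus homing receptor chosen after its values were seen, was read in 4 Cd8a cells and 0 Cd4 cells but in too few cells to enter the comparison. Of 5016 genes 29.8% were higher and 17.4% lower in Cd4 cells, with only 12 cells on the Cd8a side.

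Cd4 cells were marked by Trib2 and by genes of helper and regulatory cells. Trib2, a pseudokinase gene, was read in 29 of 40 Cd4 cells and 0 of 12 Cd8a cells, at 572 and 0.389 CPM, the latter resting on 3 counts. Gata3 was read in 18 and 1 (log2 ratio 1.82), Prkcq, the kinase of the T cell synapse, in 23 and 4 (2.26), Izumo1r, the folate receptor 4 gene, in 16 and 2 (3.61) and Ctla4, an inhibitory receptor, in 13 and 2 (1.77). Tnfrsf4, the receptor OX40, was read in 9 Cd4 cells and 0 Cd8a cells, at least 432-fold higher against a floor of 3 counts. Of 5 CD4 lineage genes 4 were higher and 1 lower, of 5 CD8 lineage genes 1 was higher and 4 lower, and of 7 effector genes 0 were higher and 4 lower, beside 29.8% higher and 17.4% lower over all genes tested. Each of these lists holds the gene that named its group or genes chosen with earlier results known, so the counts describe the cells only.

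Other genes divided the groups without belonging to a lineage list. Rgcc (20 of 40 against 3 of 12 cells, log2 ratio 2.70), Btg2 (24 against 3, 2.40) and Bzw1 (21 against 3, 3.68) were higher in Cd4 cells. Lower in Cd4 cells were Cbfb, the partner of RUNX factors (4 against 6, -3.70), Grap2, an adaptor of the receptor (5 against 6, -3.54), Lpxn (3 against 6, -3.15), Ahnak (5 against 6, -2.98) and Tgtp2, an interferon induced GTPase (11 against 7, -3.02). Of 7 receptor complex genes 1 was higher and 0 lower, and of 13 naive and homing genes 4 were higher and 1 lower. Over all genes tested 29.8% were higher and 17.4% lower in Cd4 cells. Trac was read in 39 of 40 and 11 of 12 (0.14), Lef1 in 31 and 10 (-0.10), Tcf7 in 31 and 9 (0.11) and Klf2 in 30 and 10 (-0.41). Ccr7 (35 and 7 cells) was at 0.77, short of 2-fold, and S1pr1 (37 and 9) at 1.15. Of 23 immediate early genes 10 were higher and 0 lower (median 0.81 beside 0.18 over all genes).

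Within the fresh cells of pool IM834, 16 Cd4 and 6 Cd8a cells, Trib2, Cd8b1 and Nkg7 lay on the same sides as over all cells. Trib2 was read in 10 and 0 cells, Cd8b1 in 0 and 6 and Nkg7 in 0 and 5. Rgcc (log2 ratio 2.89) and Cbfb (-3.39) stayed past 2-fold there, while Prkcq (0.58) and Gata3 (0.88) did not.

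The cells with neither coreceptor were mixed. Gata3 was read in 23 of the 54, Cxcr6 in 17, Cd40lg in 17, Nkg7 in 16, Trib2 in 12, Ifng in 12 and Zbtb16, the factor PLZF of innate-like T cells, in 5. The 5 cells with Zbtb16 and the 3 with the NK receptor Ncr1 (371 to 2002 counts) were all among them. Trib2 in 12 of 54 lay between the 29 of 40 of the Cd4 cells and the 0 of 12 of the Cd8a cells, and Cd8b1 was read in 1. The rate of missed transcripts in single cells was not measured, so cells that lack a coreceptor and cells whose coreceptor was not captured cannot be told apart.

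Naive and homing genes were read in most T cells. A T cell held a median of 8 of 14 listed naive and homing genes (0 to 12), with medians of 9 in Cd4 cells, 8.5 in Cd8a cells and 7 in cells with neither. Lef1 and Tcf7 were read together in 57 cells, Lef1 alone in 19, Tcf7 alone in 15 and neither in 15. S1pr1, needed to leave lymphoid organs, was read in 85 of 106 cells, Klf2 in 76, Satb1 in 73, Ccr7 in 71 and Foxp1 in 66. Of 25 effector and memory genes the median cell held 1 (0 to 18), with medians of 1 in Cd4 cells, 4 in Cd8a cells and 1 in cells with neither.

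The naive and effector genes tended to lie in different cells. Across the 105 cells that could be thinned to 100000 counts, the numbers of naive and of effector genes with at least 1 count after thinning had a Spearman correlation of -0.44 and a Pearson correlation of -0.68. The cells share libraries and animals, and the values are a description.

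**Figure D4:**
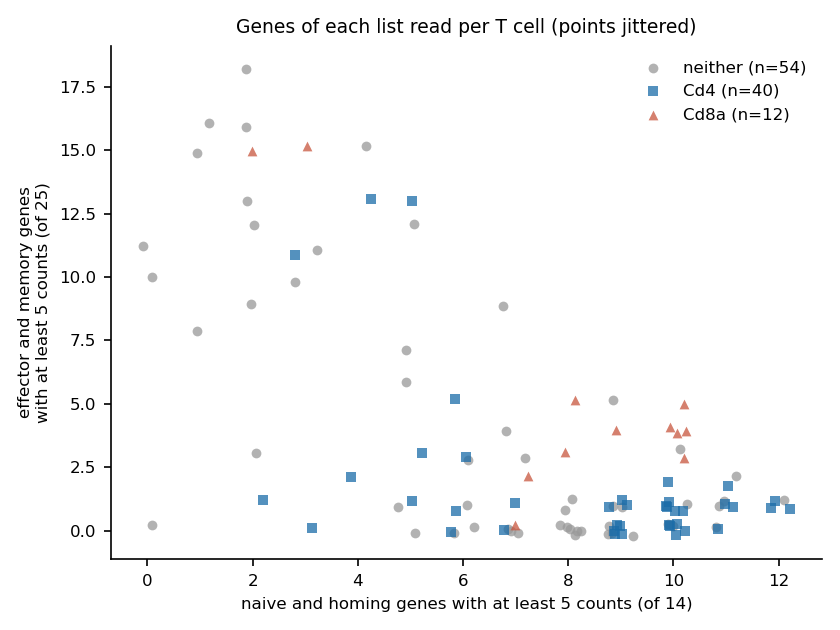
Number of naive and homing genes read per T cell (horizontal axis, of 14) against the number of effector and memory genes (vertical axis, of 25), a gene being read at 5 or more counts with no thinning, for all 106 cells, coloured by Cd4, Cd8a or neither and spread slightly to show ties. Most cells lie at many naive and few effector genes, and the cells with the most effector genes hold few naive genes.

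The 28 cells with Nkg7 show the effector end of that spread. Compared with the 78 cells without it, Cxcr6, a receptor of tissue resident cells, was read in 20 against 2, Ifng, the main type 1 cytokine, in 16 against 1, and Tbx21, the factor that drives it, in 15 against 0. Id2 was read in 25 of 28 against 19 of 78, Il2rb in 22 against 11, Cd44 in 16 against 6, Ccl5 in 10 against 1, Gzmb in 5 against 0 and Prf1 in 4 against 0. The opposite held for most naive and homing genes: Ccr7 was read in 7 of 28 against 64 of 78, S1pr1 in 12 against 73, Tcf7 in 9 against 63 and Igfbp4 in 5 against 47. Bach2 of the same list differed little (5 of 28 against 17 of 78), and Ccr9 went the other way (4 against 2). The split follows Nkg7, which was itself chosen after its values were seen, and carries no test. Of these 28 cells 3 held Cd4, 9 held Cd8a and 16 held neither.

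Foxp3, the factor of regulatory T cells, was read in 12 cells, of which 6 held Cd4 and 6 neither coreceptor. Its counts ran from 11 to 9637 with a median of 149.5, so 1 cell dominated any sum. Ctla4 was read in 8 of the 12 against 10 of the other 94 cells, Tnfrsf4 in 6 against 7, Ikzf2 in 5 against 11, Gpr83 in 5 against 10 and Il2ra in 2 against 6. Foxp3 was read in 1 to 3 cells of every group except day 1, where it was read in none of 7.

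Cells with proliferation transcripts were few. Mki67 was read in 8 cells, 3 with Cd4, 3 with Cd8a and 2 with neither, and all 8 held Stmn1, against 9 of the other 98. Cdk1 was read in 7 of the 8 against 1 of 98, Tyms in 7 against 3, Top2a in 6 against 3 and Birc5 in 3 against 0. By group they were 3 fresh IM793 cells, 1 fresh IM834 cell, 2 at 6 hours and 2 of the 3 cells at day 4.

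Receptor gene levels were compared over storage by group. In the order fresh IM793, fresh IM834, 6 hours, day 1, day 2, day 3 and day 4, the median Cd3e level was 621, 953, 713, 1366, 826, 1058 and 649 rpm. The median Trac level was 380, 677, 470, 303, 359, 353 and 225 rpm and that of Cd3d 333, 654, 642, 620, 842, 741 and 103 rpm. The Cd3e medians of days 1 and 3 lay above both fresh medians, and the Trac medians of days 1, 2, 3 and 4 lay below both. For Cd3d, days 2 and 3 lay above both fresh medians and day 4 below both. The other stored medians lay between those of the fresh pools, and the cells of every group overlapped those of every other in Cd3e. Of 7 receptor complex genes 0 passed 2-fold against fresh cells at day 1, 6 hours or day 2, where 43.2, 22.3 and 32.8% of all genes tested were lower. At day 3, where 42.7% of all genes were lower, 2 of the 7 were, Cd247 (1 of 7 cells against 29 of 44, log2 ratio -3.92) and Trbc2 (-1.18), and between the fresh pools Cd3g was lower in IM793 (-2.17).

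Jun and Fos are immediate early genes, which are induced within minutes of many stimuli, and their proteins form the AP-1 factor. From 6 hours to day 3 Jun was read in a larger share of the stored T cells than of the fresh T cells of either pool. Jun was read in 2 of 9 fresh IM793 cells and 2 of 44 fresh IM834 cells, and in 9 of 20 cells at 6 hours. On days 1, 2, 3 and 4 it was read in 4 of 7, 6 of 16, 4 of 7 and 1 of 3 cells. Its summed level was 18.7 and 10.4 CPM in the fresh pools and 782, 390, 575 and 1275 CPM from 6 hours to day 3. Single cells ran from 0 to 117 and 0 to 369 rpm in the fresh pools, with medians of 0. At 6 hours they ran from 0 to 5181 rpm with a median of 0, at day 1 from 0 to 1321 with a median of 87.4, at day 2 from 0 to 6114 with a median of 0 and at day 3 from 0 to 3028 with a median of 1339. Cells without Jun stood beside cells with high levels in each stored group, and the groups overlapped at 0. A single cell held 46.5% of the Jun counts at 6 hours and 68.2% at day 2.

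Fos was more widely read. It was found in 6 of 9 and 21 of 44 fresh cells, 13 of 20 at 6 hours, and 7 of 7, 9 of 16, 4 of 7 and 0 of 3 cells on days 1, 2, 3 and 4. Its median level was 76.0 and 2.22 rpm in the fresh pools, 1625 at 6 hours, 4597 at day 1 (8.56 to 7018), 574 at day 2, 854 at day 3 and 0 at day 4. Dusp1, a phosphatase that dampens MAP kinase signals, was already read in 8 of 9 and 25 of 44 fresh cells, and its sum was 1124 and 603 CPM fresh, 1656 at 6 hours, 5562 at day 1, 1698 at day 2 and 3127 at day 3. Zfp36, which destabilises cytokine transcripts, was read in 5 of 9, 17 of 44, 13 of 20, 3 of 7, 14 of 16 and 4 of 7 cells from fresh to day 3, at 126, 55.0, 274, 434, 1286 and 879 CPM. Junb was read in most cells of every group, at 1825 to 3011 CPM outside day 4. Fos and Jun were read together in 21 of the 106 cells, Fos alone in 39, Jun alone in 7 and neither in 39.

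Jun was also read in a larger share of stored than of fresh non-T cells of the same sorts. It was found in 30 of 66 and 8 of 37 fresh non-T cells, 32 of 56 at 6 hours, and 55 of 68, 45 of 62 and 39 of 75 cells on days 1, 2 and 3. Fos was read in 60 of 66 and 30 of 37 fresh non-T cells and 46 of 56 at 6 hours. The fresh pools also differed in Jun among non-T cells.

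**Figure D5:**
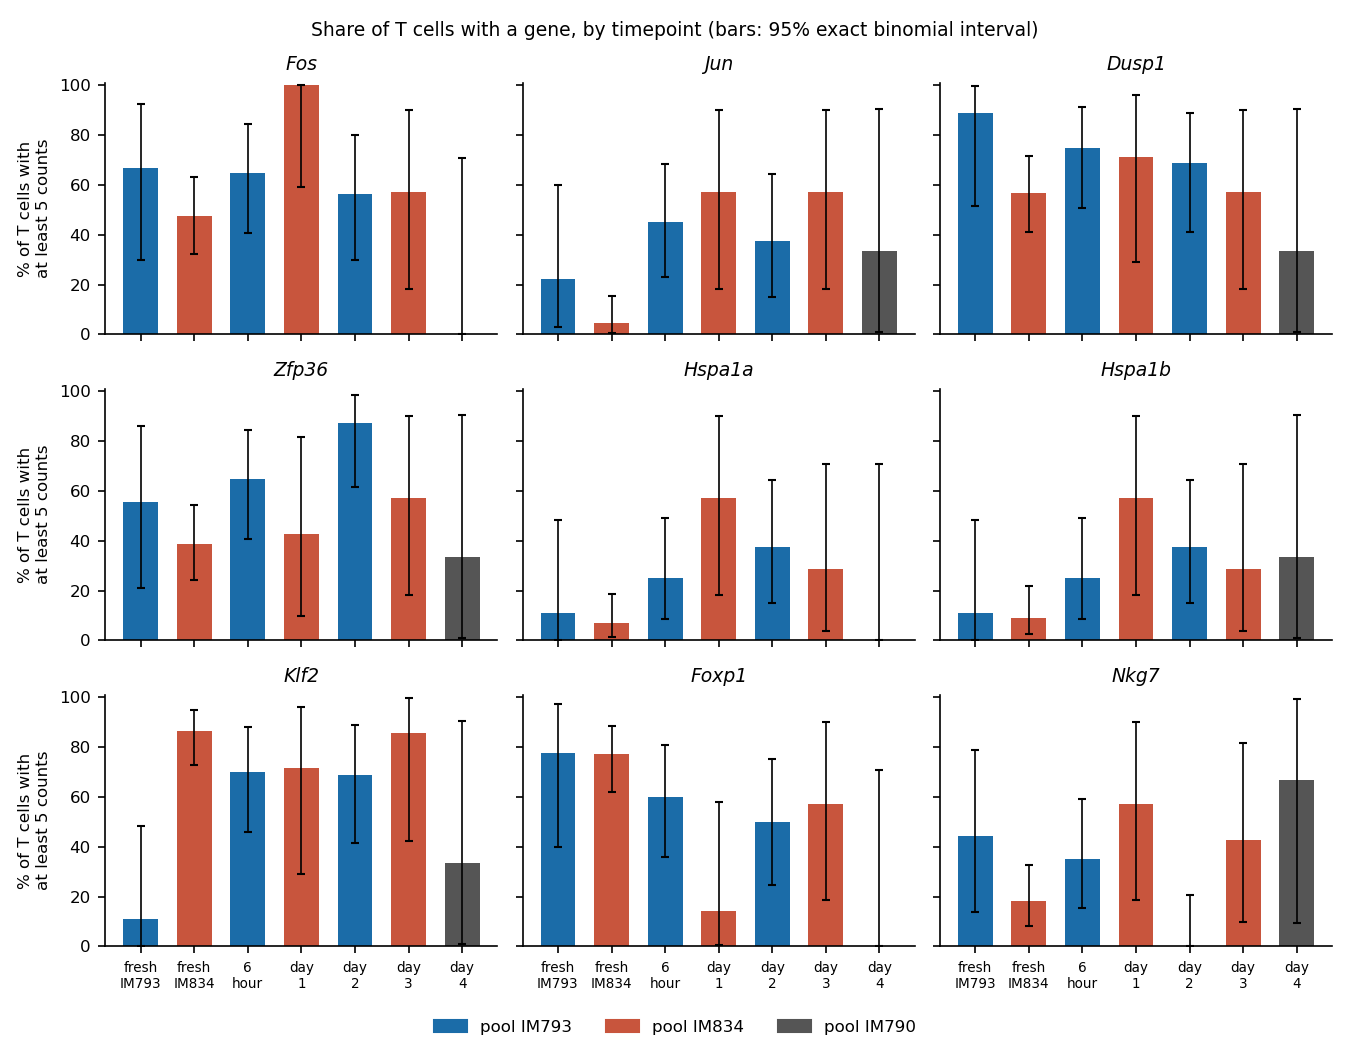
Percent of T cells with at least 5 counts of 9 genes (vertical axis) by timepoint and pool (horizontal axis), as coloured bars with exact 95% binomial intervals for counting error. Jun is read in 2 of 44 fresh IM834 cells and in 4 of 7 cells each on days 1 and 3, Klf2 in 1 of 9 fresh IM793 cells, and Nkg7 in 0 of 16 day 2 cells.

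Within pool IM834, day 1 T cells (7) and day 3 T cells (7) were set against the 44 fresh T cells. At day 1, 17.8% of 4070 genes were higher and 43.2% lower, and at day 3, 18.3% of 4082 were higher and 42.7% lower. Each stored group held only 7 cells, and the median log2 ratio over all genes was -0.59 at day 1 and -0.56 at day 3. Both comparisons used the same fresh cells. The excess of lower genes depended on the filter: among genes with at least 1 count in both groups, 1715 were higher and 1515 lower at day 1, and 1860 and 1730 at day 3.

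At day 1, 14 of 21 immediate early and feedback genes were higher and 0 lower, with a median log2 ratio of 1.74. Jun was at 5.23 (4.25 to 5.57 when each day 1 cell was left out in turn), Dusp1 at 3.21 (2.60 to 3.46), Fos at 2.46 (2.17 to 2.71) and Ier2, read in 7 of 7 cells, at 2.03 (1.09 to 2.27). Nfkbid, an inhibitor of NF-kB (4 of 7 against 5 of 44, 3.46), Stat3 (4 against 8, 2.76) and Pak1ip1 (4 against 5, 3.98) were among the genes with the largest ratios, and Xist was the largest of all (5 of 7 against 1 of 44, 8.05). Of 11 heat shock genes 6 were higher and 1 lower (median 1.20). Of 8 effector genes 6 were higher and 0 lower, beside 4 of 7 day 1 cells and 8 of 44 fresh IM834 cells with Nkg7, so the share of cells with Nkg7 moved with these ratios and its part was not tested. The day 1 cell with the fewest genes, 602, was among the 7.

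Foxp1, a factor that keeps naive T cells quiescent, was lower at day 1. It was read in 1 of 7 cells against 34 of 44 fresh IM834 cells (2.27 against 468 CPM, log2 ratio -7.68), and it stayed at or below -7.35 when any day 1 cell was left out. Foxp1 was also read in 7 of 9 fresh IM793 cells, 12 of 20 at 6 hours, and 8 of 16 and 4 of 7 cells on days 2 and 3, with sums of 379 to 406 CPM in these groups. The day 1 value thus lay apart from those of the times before and after it, and the Xist share of day 1 cells lay apart from the other groups of its pool. Git2 and Sptbn1 were each read in 0 of 7 day 1 cells and 24 of 44 fresh cells.

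At day 3, 10 of 20 immediate early genes were higher and 3 lower (median 1.26). Jun was at 6.94 (5.96 to 7.27 with each day 3 cell left out) and Zfp36 at 4.00 (2.46 to 4.26), while Fos at 1.52 (0.50 to 1.85) and Dusp1 at 2.37 (0.75 to 2.70) each fell short of 2-fold without 1 of the cells. Btg2 (3.11) went to -0.06, Egr1 (4.51) to 0.59 and Cd69 (2.16) to -0.49 without 1 cell. Gps2 (6 of 7 against 13 of 44, 3.18), Rps6ka1, a kinase of the MAP kinase pathway (5 against 15, 2.74) and Cd96 (4 against 7, 2.61) had large ratios spread over more cells. Sfpq (1 of 7 against 22 of 44, -7.45), Ezr (1 against 22, -6.93) and Cd27, a costimulatory receptor (1 against 25, -6.37), were among the lowest. Of 13 naive genes 0 were higher and 7 lower (median -1.14), with S1pr1 at -1.66, beside 42.7% of all genes lower. Of 8 effector genes 6 were higher and 0 lower (median 1.49), and Nkg7 was read in 3 of 7 day 3 cells and 8 of 44 fresh IM834 cells, so that share moved with these ratios here too, and its part was not tested.

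At 6 hours and day 2, T cells of pool IM793 were set against all 53 fresh T cells, of which 9 came from that pool. At 6 hours 19.6% of 5000 genes were higher and 22.3% lower, and at day 2, 22.2% of 4842 were higher and 32.8% lower. Among genes with at least 1 count in both groups the shares were 32.0% higher and 22.9% lower at 6 hours, and 37.2 and 24.4% at day 2. Jun was at 6.02 at 6 hours and 5.58 at day 2, and at 5.39 and 4.94 against the 9 fresh cells of the same pool. With each stored cell left out in turn, Jun against all fresh cells ran from 5.23 to 6.13 at 6 hours and from 4.03 to 5.71 at day 2. Fos was at 2.03 and 2.26 (2.22 and 2.45 within the pool), and stayed between 1.69 and 2.40 with each cell left out. Dusp1 was at 1.23 and 1.27 against all fresh cells, but 0.56 and 0.59 against the 9 fresh IM793 cells, short of 2-fold, and it also fell short without 1 of the 6 hour cells (0.89) and without 1 of the day 2 cells (0.84). Zfp36 was at 1.99 and 4.22, and at 1.12 and 3.35 within the pool, and no lower than 1.69 and 3.98 with a stored cell left out. Over the immediate early list 6 of 23 genes were higher and 4 lower at 6 hours (median 0.26), and 10 of 23 higher and 2 lower at day 2 (median 0.92).

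Some of the genes with the largest ratios at these times differed between the fresh pools too. Gm7331, a pseudogene-named row, was read in 20 of 20 cells at 6 hours, 15 of 16 at day 2 and 6 of 9 fresh IM793 cells, against 0 of 44 fresh IM834 cells, and Gm10136 was read in 3 of 9 and 0 of 44. Gm10071 and Rps27.ps1, also higher at both times, were read in 0 of 53 fresh cells, where their counts summed to 16 and 17. Such rows share sequence with expressed genes and their counts are uncertain. Gm8909 went the other way, read in 35 of 44 fresh IM834 cells, 0 of 9 fresh IM793 cells, 2 of 20 at 6 hours and 1 of 16 at day 2. Among genes of known function, Hnrnpab was lower at 6 hours (3 of 20 against 35 of 53 cells, log2 ratio -3.87), as were Srsf2 (7 against 37, -2.41) and Foxo1, a factor of naive T cells (5 against 33, -2.37). Against the 9 fresh IM793 cells alone Hnrnpab was at -1.82 and Foxo1 at -0.32.

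At day 2, Slc12a7, an ion cotransporter gene, was read in 9 of 16 cells against 7 of 53 (log2 ratio 4.25) and in 0 of 9 fresh IM793 cells. Arid1a, a chromatin remodelling subunit, was read in 0 of 16 day 2 cells, 34 of 53 fresh cells, 5 of 9 fresh IM793 cells and 11 of 20 at 6 hours. Gnb1 and Grk6 held no count over the 16 cells, against 32 and 30 of 53 fresh cells.

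Day 2 against 6 hours kept the pool label the same, and 19.1% of 4666 genes were higher and 28.6% lower at day 2. Sh2d1a, the adaptor SAP (10 of 16 against 2 of 20 cells, log2 ratio 4.70), Zfp36 (14 against 13, 2.23), Btg2 (11 against 8, 2.11) and the small nuclear RNA Rn7sk (11 against 6, 3.83) were higher at day 2. Sema4a was read in 0 of 16 against 10 of 20, and Pim2, a survival kinase, in 1 against 10 (-7.84). Of 13 effector genes 1 was higher and 11 lower, with a median log2 ratio of -2.61. Nkg7 was read in 7 of 20 cells at 6 hours and 0 of 16 at day 2 (exact 95% interval 0 to 20.6%), Ifng in 4 and 0 and Cd44 in 6 and 0.

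Effector genes varied between groups of T cells at every time. Nkg7 was read in 4 of 9 fresh IM793 cells and 8 of 44 fresh IM834 cells, and in 4 of 7, 3 of 7 and 2 of 3 cells on days 1, 3 and 4. Cxcr6 was read in 4, 4, 6, 3, 2, 2 and 1 cells in the order fresh IM793, fresh IM834, 6 hours, day 1, day 2, day 3 and day 4. The median number of effector genes per cell was 5 in fresh IM793, 1 in fresh IM834, 1.5 at 6 hours, 4 at day 1, 0.5 at day 2, 1 at day 3 and 11 in the 3 day 4 cells. The median number of naive genes was 6, 9.5, 7.5, 3, 7, 5 and 3 in the same order. These numbers differed between the fresh pools as well as between times.

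The inducible Hsp70 genes were read in few T cells, mostly in stored ones. Hspa1a, at chr17:34969190-34972156 on the minus strand, was read in 1 of 9 and 3 of 44 fresh cells, 5 of 20 at 6 hours, and 4 of 7, 6 of 16, 2 of 7 and 0 of 3 cells on days 1, 2, 3 and 4. Its summed level was 9.01 and 8.51 CPM fresh and 157, 177, 359 and 145 CPM from 6 hours to day 3. Single fresh cells reached at most 144 rpm, and single stored cells 1228, 900, 1340 and 819 rpm in those groups. Day 1 was at a log2 ratio of 4.38 (3.06 to 4.70 with each cell left out), 6 hours at 4.19 (3.66 to 4.29) and day 2 at 5.38 (5.11 to 5.50). At day 3 Hspa1a was read in too few cells to enter the comparison, and 1 cell held 94.0% of its counts. Hspa1b was read with Hspa1a in 21 cells, alone in 2, and Hspa1a was never read alone. The pair shares much of its sequence, with 52.7% of 75-base windows of Hspa1a also found in Hspa1b, so the 2 counts are not independent. Their upstream windows differed at 3 of 250 bases, and that of Hspa1a is shown with the heat shock letters GAANNTTC in capitals, which 6.69% of mouse promoter windows held.
Hspa1a, chr17:34972157-34972406, minus strand: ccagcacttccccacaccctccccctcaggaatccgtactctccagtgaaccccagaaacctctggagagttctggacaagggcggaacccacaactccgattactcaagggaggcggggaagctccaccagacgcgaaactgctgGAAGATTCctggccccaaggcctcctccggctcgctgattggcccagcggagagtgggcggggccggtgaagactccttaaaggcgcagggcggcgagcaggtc
Among other chaperone genes, Hspa8 was at a log2 ratio of 1.33 and Hsp90aa1 at 1.27 at day 3, both past 2-fold. Of 10 heat shock genes in that comparison 5 were higher and 2 lower.

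Cold-inducible RNA binding genes were not higher in the stored T cells. Rbm3 was read in 8 of 9 and 26 of 44 fresh cells, 13 of 20, 4 of 7, 10 of 16 and 4 of 7 from 6 hours to day 3, at 447 and 351 CPM fresh and 315, 184, 332 and 307 CPM after storage. Cirbp was read in 3 of 9 and 10 of 44 fresh cells, 4 of 20 at 6 hours, and 0 of 7, 2 of 16 and 0 of 7 cells on days 1, 2 and 3. With 7 cells in a group, a share of 0 does not show that the gene was absent.

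The 2 groups of fresh T cells, 9 of IM793 and 44 of IM834, give the spread between pools with no storage. Of 4734 genes 20.8% were higher and 29.6% lower in IM793, beside 22.3 and 32.8% lower at 6 hours and day 2 and 43.2 and 42.7% lower at days 1 and 3 against fresh T cells. Klf2 was read in 1 of 9 against 38 of 44 (3.23 against 400 CPM, log2 ratio -6.95), Gata3 in 1 against 22 (-3.36), Pdcd4 in 5 against 35 (-4.27) and Rgcc in 4 against 26 (-2.95). Icam1, an adhesion molecule, was read in 5 of 9 against 2 of 44 (6.37), and Xist in 6 against 1 (7.82). Of 22 immediate early genes 11 were higher and 2 lower (median 1.05 beside -0.14 over all genes), and of 8 interferon response genes 5 were higher and 0 lower (median 1.25). Klf2 at 6 hours and day 2 was read in 14 of 20 and 11 of 16 cells, more often than in the fresh cells of that pool and less often than in those of the other.

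The 3 day 4 T cells are given as values only. Cd3e was at 319, 649 and 691 rpm, Cd4 was read in 2, Cd8a in 0, Trac in 2 and Tcf7 in 0. Fos, Foxp1 and Hspa1a were read in 0 of the 3, Jun in 1 and Nkg7 in 2. These cells held many genes (median 4531) and 2 of the 3 held Mki67.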

How the data were processed

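Single mouse kidney immune cells were sequenced by the SmartSeq2 protocol with Nextera-XT libraries and poly(A) RNA, so the values are reads and not molecules. The authors trimmed reads to 75 bp with fastx_trimmer, removed duplicates with picard, aligned to GRCm38 with STAR and deposited raw counts per gene from HTSeq (intersection-strict, strand ignored), leaving out cells under 1000 reads. Versions of these tools were not given in the sources used here. Of the 502 cells, the deposited table held a column each, with 46700 rows, of which 97 (spike-ins and a vector, 0.140% of counts) were left out. Counts per cell ran from 1759 to 1895431.

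Members, gene lists and comparisons were chosen with earlier results of these data known. Counts were summed per group and given as CPM, cells were thinned to 100000 counts, with a limit of 1 count (5 for the rule itself), where shares were checked against depth, and shares carry exact (Clopper-Pearson) 95% intervals, which cover counting error only. Since no label named an animal, a timepoint was 1 sample, and no test between groups, p-value or standard error was computed. Dixon's ratio was used only to flag single cells within a group. A gene entered a comparison where 10% or more of the cells of both groups together held 5 counts of it, and a 2-fold difference was counted. A group at 0 was set to a floor of 3 counts. Named genes were the 7 T cell markers, list members with 5 counts in 10% or more of either group, and for each comparison the 10 genes with the largest ratio in each direction among genes with 5 counts in 50% or more of the higher group's cells and no cell holding over 50% of its sum. A few genes that this rule would name are not reported here. Alternatives were no filter, thinning, other count limits, single pools, and leaving out cells; TMM (edgeR 4.0.16) and size factors (DESeq2 1.42.0) gave scaling factors only. The scripts (Python 3.11.15, numpy 2.4.6, pandas 2.3.3, scipy 1.17.1, R 4.3.3) were tested on simulated data.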

Additional observations from a re-analysis of the deposited data

Results flagged for a closer look

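In 24 groups of measures over 4 to 10 T cells, the highest and lowest cell were compared with the rest by Dixon's ratio. In these, 3 cells stood far from the others. Chance gives about 1 in 20 groups only for normally spread values, which was not checked for these measures. In the 9 fresh T cells of pool IM793 the highest mitochondrial share was 7.84% of counts, with the next cell at 3.88%. In the 7 day 1 T cells the lowest number of genes with a count was 602, with the next cell at 1553. In the 7 day 3 T cells the highest Trac level was 1163 rpm, with the next cell at 409 rpm.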

How the results depend on the processing

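Of 81 values recomputed under another setting with no cell left out singly, 69 stayed within 1.5 times the reported count or within the counting interval, and 12 moved. With the filter on low counts replaced by at least 1 count in both groups, which also drops genes at 0 in either, T cells against all other cells had 3097 genes higher and 3232 lower, Cd4 against Cd8a cells 2304 higher and 2144 lower, and 6 hours against fresh 3030 higher and 2167 lower. In the same setting 1715 genes were higher and 1515 lower at day 1, 1860 and 1730 at day 3, 2799 and 1835 at day 2 against fresh, and 1781 and 1813 at day 2 against 6 hours; more genes were tested in each. The excess of lower genes at 6 hours and days 1, 2 and 3 against fresh thus turned to an excess of higher genes. With fresh cells of pool IM834 only, 931 of 4527 genes were higher in T than in other cells and 882 lower. With fresh T cells of pool IM793 only, 1906 of 6343 were higher at 6 hours and 1438 lower. In both settings the excess of lower genes turned to an excess of higher genes, and the cause was not tested. Leaving out each stored T cell in turn, an alternative chosen after seeing the data as was leaving out cells under 100000 counts, gave 852 to 902 genes higher and 2152 to 2281 lower at day 1, 887 to 931 higher and 2167 to 2387 lower at day 3, 947 to 1006 higher and 1101 to 1175 lower at 6 hours, and 1034 to 1078 higher and 1594 to 1653 lower at day 2; the genes tested numbered 4620 to 4750 at days 1 and 3, above the 4070 and 4082 tested with all cells, and were fewer than with all cells at 6 hours and day 2. The rule took 104 cells at 1 count or more, 106 at 10 or more, 102 at 5 or more after thinning and 134 with any CD3 gene. No paired analysis was possible because the labels name no animal and the replicate numbers only name cells. The number of cells limits the groups of 7 and 3 T cells, where a gene read in 0 cells can still be transcribed. Median counts per T cell were lowest at day 3 (492160) and highest at day 4 (1287399).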
